A study of Mus musculus with 8 samples.

Results

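Colony-stimulating factors are the growth and survival signals of the myeloid lineage, and this account covers 7 genes that encode their receptors and ligands. The receptors were Csf1r, Csf2ra, Csf2rb, Csf2rb2 and Csf3r, and the ligands were Csf1 and Il34. A gene was taken with 3 kb on each side of its body, and every ATAC-seq peak that overlapped this stretch, called its locus here, was counted as its own. The 7 genes are part of 21911 protein-coding genes of the annotation. Peaks of the 8 libraries that overlapped by at least 1 bp were joined into regions, and 50 of the 197916 regions of the genome lay at the 7 loci.

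ATAC-seq, in which the Tn5 transposase cuts DNA that is open in the nucleus, was performed on cerebral cortex of 4 sham and 4 BCAS mice, with 1 library per mouse. BCAS is bilateral carotid artery stenosis, a model of chronic cerebral hypoperfusion, in which 11-week-old mice received a microcoil of 0.16 mm around the right and of 0.18 mm around the left common carotid artery. In sham mice the arteries were exposed without a coil. All were male C57BL/6 mice of 14 weeks, taken 3 weeks after surgery. The labels name the right cerebral cortex as the tissue, and the quality control table of the study describes the cortex of the whole brain, so the side is uncertain. The lists held 107391 to 144988 peaks in sham and 119565 to 160720 peaks in BCAS on 21 chromosomes, covering 44.5 to 60.8 Mb and 48.9 to 66.3 Mb of DNA. Reads were not counted in these lists, and how deeply any peak was sequenced is therefore not known from them. In the same quality control table the read GC content was high in sham 1, 2 and 3 and in BCAS 1, and low in sham 4 and in BCAS 2, 3 and 4, so this property of the libraries was unevenly spread over the groups.

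CSF1R is the receptor tyrosine kinase on which microglia depend for survival. Its ligands are CSF1 and IL-34, of which IL-34 is made mainly by forebrain neurons. The GM-CSF receptor joins an alpha chain from Csf2ra with the beta chain from Csf2rb, which also serves the receptors of IL-3 and IL-5. In the mouse a near copy of that gene, Csf2rb2, encodes a beta chain used by the IL-3 receptor alone. CSF3R, the receptor of G-CSF, is best known from neutrophils and their precursors.

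The beta chain genes showed the clearest difference between BCAS and sham cortex. Csf2rb was covered by 438 ± 145 bp of peaks in sham and 1303 ± 262 bp in BCAS (SD, n = 4 each), and Csf2rb2 by 0 bp and 336 ± 117 bp (SD, n = 4 each). Csf1r and Csf3r had higher means in BCAS that did not pass the test, and Csf2ra, Csf1 and Il34 differed little. The covered length of a locus is the number of its bases within peaks, scaled to the total covered length of the library, and it was compared on the scale of log2(bp + 200) with limma. Among the 6 members with a mean of at least 200 bp, 1 was called higher in BCAS at an adjusted p under 0.05 and 0 lower, where 3.15% of the 17012 loci tested were called higher and 0.376% lower.

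**Figure D1:**
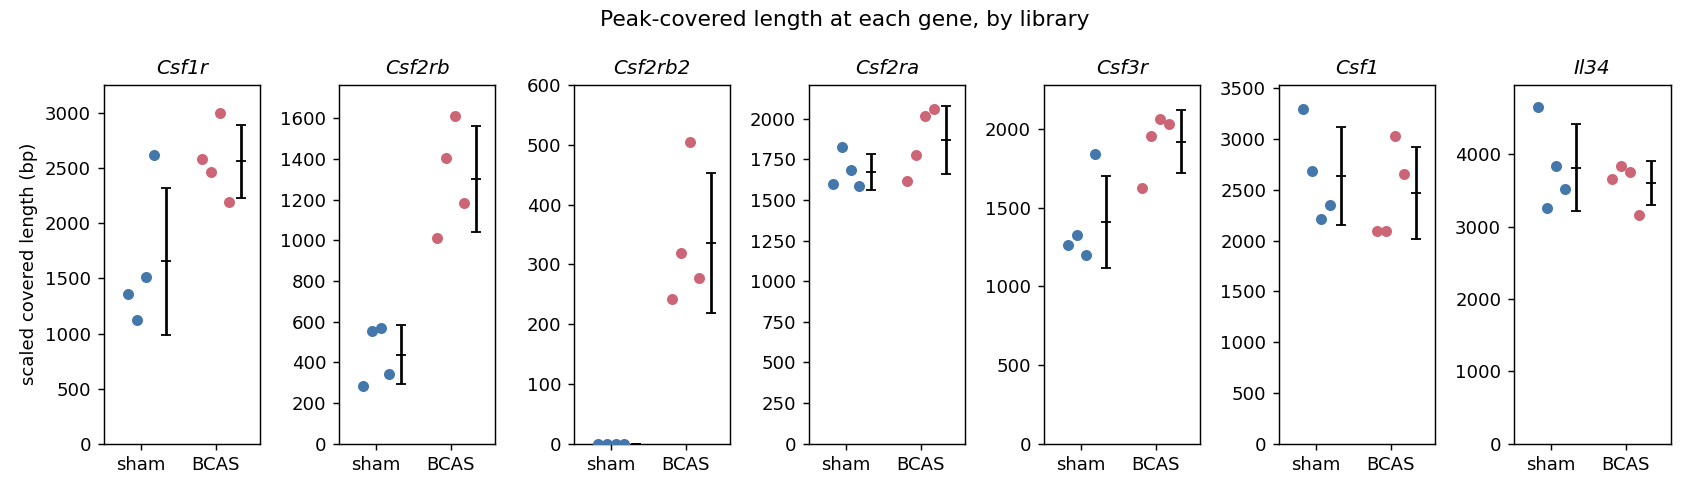
Scaled covered length of each locus in bp (y axis, from 0, with its own scale in each panel) for the 4 sham and 4 BCAS libraries, with the mean and SD beside the points. Every BCAS library lies above every sham library for Csf2rb and Csf2rb2, and the groups overlap for the other 5 genes.

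Csf2rb lies on the plus strand of mm10 at chr15:78325752-78353847. The scaled covered length of its locus was 284.2, 555.5, 567.6 and 343.0 bp in sham 1 to 4. In BCAS 1 to 4 it was 1012, 1403, 1614 and 1183 bp. The lowest BCAS library thus lay above the highest sham library, as was the case for 6.03% of all loci tested. The log2 fold change was 1.25 ± 0.18 (SE; 95% interval 0.87 to 1.63; limma adjusted p = 0.00101). Within the libraries of high read GC content the log2 difference was 0.89, with 3 sham against 1 BCAS library, and within those of low content it was 1.55, with 1 sham against 3 BCAS libraries. When all lists were shortened to the same number of peaks the log2 fold change was 0.79 (limma adjusted p = 0.0518), which ended the call.

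The number of peaks at Csf2rb was also higher in BCAS, but it rests on the same peaks as the covered length and is no further support. The locus held 1, 2, 1 and 1 peaks in sham 1 to 4, compared with 4, 5, 4 and 3 in BCAS 1 to 4 (exact two-sided permutation test, p = 0.0286, the smallest that 4 against 4 libraries allow). The share of loci with peak numbers apart in this way was not counted. A region at its transcription start, named Csf2rb region 1 here (chr15:78325662-78326170), had a peak in 4 BCAS and 0 sham libraries. These peaks were 509, 402, 399 and 472 bp long in BCAS 1 to 4, as lengths of single regions are given without scaling unless stated. Their enrichment over the local background was 6.65-, 5.90-, 6.67- and 6.18-fold by the authors' values, which placed them above 57.3%, 50.2%, 59.7% and 52.9% of the peaks of their own libraries. They were therefore peaks of middle rank and not at the edge of detection. The summit of this region lay 98 bp after the start, in exon 1 of the transcript Csf2rb-206.

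Further into the gene, Csf2rb region 3 (chr15:78339293-78340425, summit in intron 5) had peaks in all 8 libraries. It was covered by 241, 328, 653 and 289 bp in sham and by 518, 569, 917 and 623 bp in BCAS. The groups overlapped through sham 3 alone. The strongest peak of this region ranked above 67.4% to 91.9% of peaks in sham and 86.8% to 91.2% in BCAS, so that the enrichment ranks overlapped too. Csf2rb region 4, which lay 29.43 kb after the start and beyond the end of the gene, had a peak in 1 sham and 3 BCAS libraries.

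Csf2rb2 lies on the minus strand at chr15:78282507-78305721. No sham library had a peak at its locus, and the gene is therefore listed at 0 in sham. The scaled covered length was 241.7, 318.2, 504.9 and 277.6 bp in BCAS 1 to 4 (exact two-sided permutation test, p = 0.0286, the smallest possible). The mean over all libraries was below the minimum of 200 bp, and no fold change was computed against a group at 0. Csf2rb2 region 1 (chr15:78305506-78305858) spanned the start of the gene, with its summit 51 bp after it in exon 1, and had a peak in 4 BCAS and 0 sham libraries. Those peaks covered 303, 312, 241 and 257 bp and ranked above 54.3%, 66.7%, 38.4% and 65.8% of the peaks of BCAS 1 to 4. In both read GC classes the sham value was 0 bp, against 242 bp in the 1 BCAS library of the high class and 367 bp as the mean of the 3 BCAS libraries of the low class.

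The starts of the beta chain genes were thus the 2 regions at the 7 loci that had a peak in every BCAS and in no sham library. Over the genome 1.62% of regions had that pattern and 0.0945% had the opposite one, which 0 regions at the 7 loci showed. Both regions kept the pattern when only peaks with a -log10 q of at least 5 were used and when all lists had the same length.

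**Figure D2:**
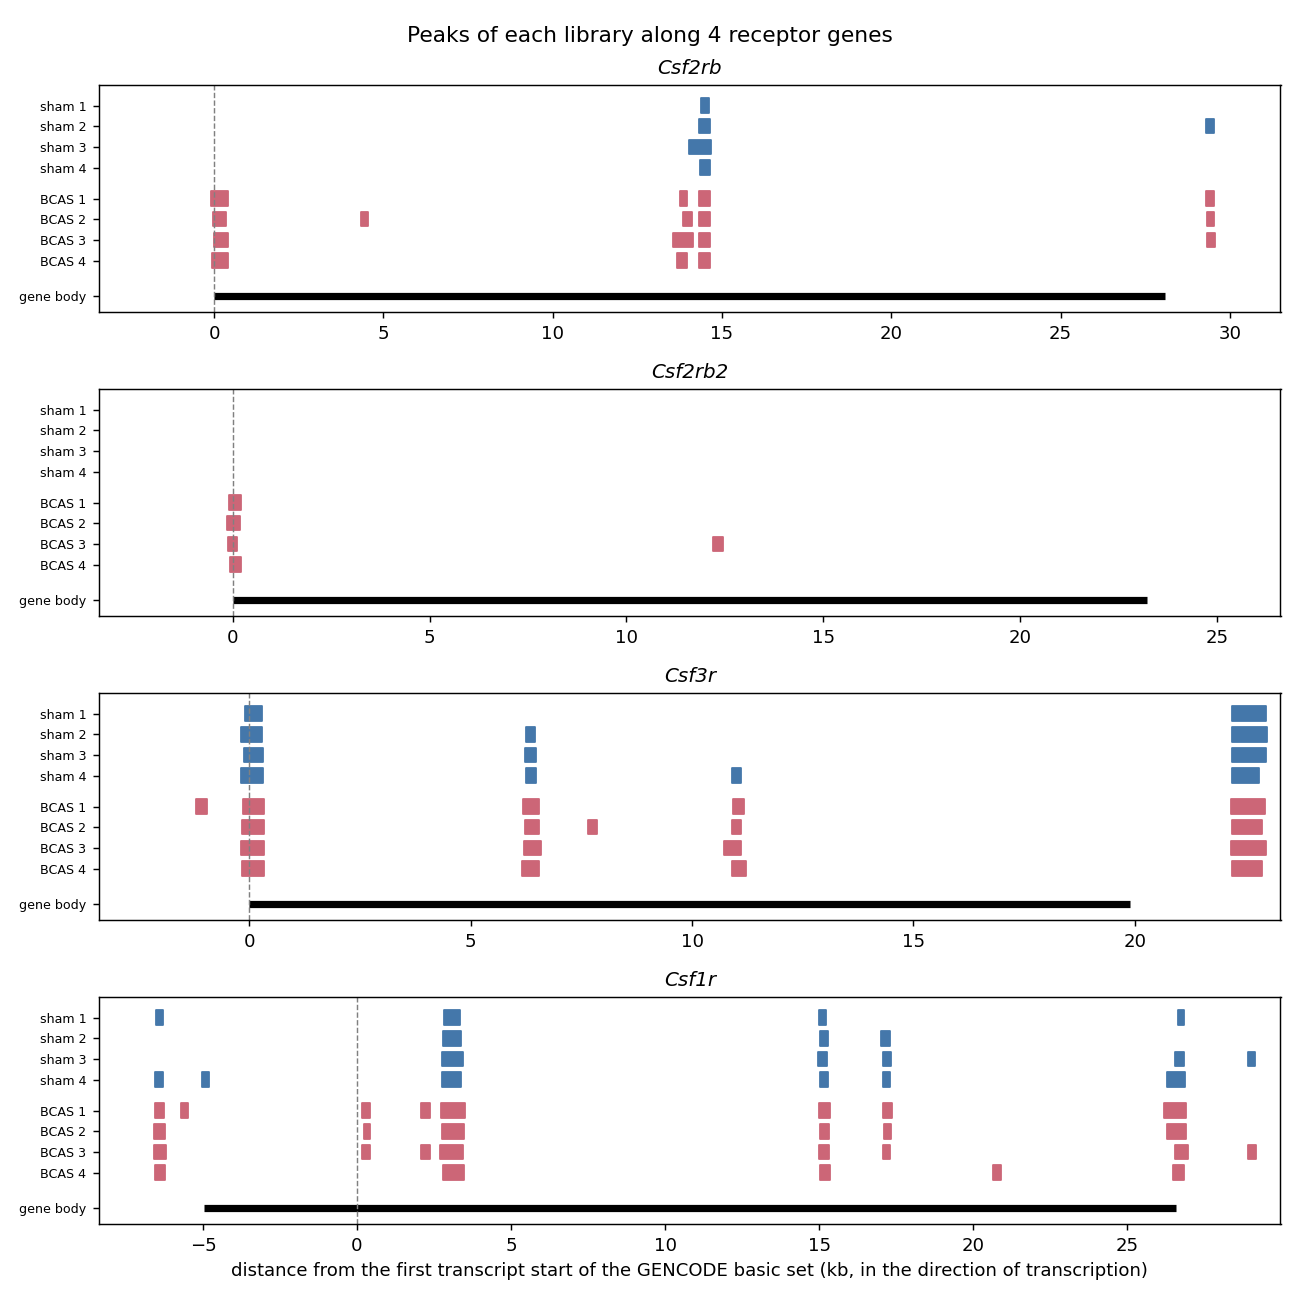
Peaks of each sham (blue) and BCAS (red) library along Csf2rb, Csf2rb2, Csf3r and Csf1r, as distance in kb from the first transcript start of the GENCODE basic set (dashed line), with the gene body in black. Peaks at the start of Csf2rb and Csf2rb2 are seen in the 4 BCAS libraries only, and the Csf3r locus has its main start peak in all 8.

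The sequences at these starts are shown because they are the DNA that had peaks in BCAS alone. The first 2 are the parts of Csf2rb region 1 (chr15:78325662-78325751) and Csf2rb2 region 1 (chr15:78305722-78305858) that lie before the transcription start. The last is a stretch of 30 bases around a match to the core motif of PU.1, the ETS factor of myeloid cells, and it is the same in all 30 bases at Csf2rb (chr15:78325971-78326000) and Csf2rb2 (chr15:78305676-78305705). All were read from GRCm38 in the direction of transcription, and capitals mark motif matches.
Csf2rb region 1 before the start: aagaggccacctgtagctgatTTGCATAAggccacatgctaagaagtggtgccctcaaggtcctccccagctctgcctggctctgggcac
Csf2rb2 region 1 before the start: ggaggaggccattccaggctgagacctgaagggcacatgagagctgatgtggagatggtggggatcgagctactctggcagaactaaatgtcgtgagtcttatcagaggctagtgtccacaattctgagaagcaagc
PU.1 match of both genes: gggcactggcaACTTCCTCaatctgctctc

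Motifs were searched on both strands, as GAGGAAGT for PU.1, TGTGGTT for RUNX, TTGCNNAA for C/EBP, TGANTCA for AP-1 and GAAANNGAA for IRF factors. The PU.1 match lay 234 bp after the start of Csf2rb, in the intron that follows exon 1 of Csf2rb-206, and 30 bp after the start of Csf2rb2. At Csf2rb2 it was 21 bp from the summit, and at Csf2rb it was 136 bp away. A PU.1 match within 100 bp of the summit occurred in 2.92% of all regions and in 15.4% of the 3206 regions with peaks in BCAS alone. Csf2rb region 1 also held C/EBP matches 65 bp before and 215 bp after the start, which is 163 and 117 bp from its summit. C/EBP matches within 100 bp of the summit, a window that holds neither of these, were found in 9.78% of all regions and in 15.1% of those with peaks in BCAS alone. A match describes these letters only and is not evidence of a bound factor.

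Because the beta chain genes are near copies, their peaks may share reads. Of the 460 words of 50 bases in Csf2rb region 1, 22 (4.78%) also occurred at the Csf2rb2 locus, and of the 304 words in Csf2rb2 region 1, 22 (7.24%) occurred at Csf2rb. The longest unbroken run that the start regions had in common was 64 bases. Sharing was wider in Csf2rb region 3, at 21.5% of words, and in Csf2rb2 region 2, at 45.1%, so values of those regions are uncertain between the genes. The start regions are not free of this doubt. The PU.1 match 21 bp from the summit of Csf2rb2 region 1 lies in the 30 bases that are the same at both genes. How the authors treated reads that map to several places is not given in the sources used here.

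Csf3r, the G-CSF receptor gene (chr4:126024550-126044440, plus strand), had more covered DNA in BCAS than in 3 of the 4 sham libraries. The scaled covered length was 1265, 1328, 1198 and 1842 bp in sham 1 to 4. It was 1624, 1957, 2064 and 2032 bp in BCAS 1 to 4. The means were 1408 ± 294 bp and 1919 ± 202 bp (SD, n = 4 each), and the groups overlapped through sham 4. The log2 fold change was 0.41 ± 0.13 (SE; limma adjusted p = 0.114), which did not pass. Without sham 4 it was 0.53 (limma adjusted p = 0.024), and with 10 kb on each side of the gene it was 0.65 (limma adjusted p = 0.00552). With read GC class as a covariate it was 0.22 (limma adjusted p = 0.416), and in the promoter window alone it was 0.15 (limma adjusted p = 0.999). The difference within read GC classes was 0.32 in the high and 0.12 in the low class.

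At the start of Csf3r (Csf3r region 2, summit 99 bp after the start) all 8 libraries had a peak, which covered 375 to 505 bp in sham and 467 to 527 bp in BCAS before scaling. Its enrichment was 4.40-, 5.82-, 5.45- and 6.25-fold in sham and 8.83-, 7.93-, 6.42- and 8.41-fold in BCAS, with a median rank of 41.2% and 72.9%. Fold enrichment is a value made within each library, so the groups are compared by rank. The ranks overlapped, at up to 56.8% in sham and from 56.5% in BCAS. Csf3r region 3 (chr4:126030705-126031133, intron 4) was covered by 0, 209, 240 and 230 bp in sham and by 359, 316, 373 and 384 bp in BCAS. Its peaks ranked above 19.5% to 26.3% of peaks in the 3 sham libraries that had one and above 55.7% to 76.4% in BCAS. Csf3r region 5 (chr4:126035275-126035766, intron 9) was covered by 211 bp in sham 4 and by 0 bp in the other sham libraries, against 254, 220, 370 and 323 bp in BCAS 1 to 4. Scaled to the library total, region 3 covered at most 273 bp in sham and at least 286 bp in BCAS. The share of regions of the genome with such a separation was not counted. Region 5 covered 250 scaled bp in sham 4 against 203, 224, 385 and 349 bp in BCAS, so that after scaling the groups overlapped at region 5. The downstream Csf3r region 6 lay in the body of Mrps15, a mitochondrial ribosomal protein gene, and had peaks in all 8 libraries, so that part of the covered length of the Csf3r locus belongs to a neighbour. Without the bodies of other genes the log2 fold change of Csf3r was 0.60 (limma adjusted p = 0.0742).

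The 201 bases around the summits of these intron regions are given because peaks there were longer before scaling in every BCAS library, again from GRCm38 on the plus strand (chr4:126030797-126030997 and chr4:126035508-126035708). Capitals mark a PU.1 match 47 bp from the summit in the first and a C/EBP match 33 bp from the summit in the second.
Csf3r region 3: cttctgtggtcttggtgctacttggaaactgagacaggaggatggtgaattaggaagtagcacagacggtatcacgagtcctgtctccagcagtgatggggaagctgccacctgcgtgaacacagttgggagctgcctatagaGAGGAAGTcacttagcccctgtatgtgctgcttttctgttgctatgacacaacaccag
Csf3r region 5: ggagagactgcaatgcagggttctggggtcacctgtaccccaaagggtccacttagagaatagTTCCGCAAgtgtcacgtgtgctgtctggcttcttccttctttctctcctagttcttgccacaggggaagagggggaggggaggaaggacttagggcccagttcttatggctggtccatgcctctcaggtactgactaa

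Of all 50 regions at the 7 loci, 3 held a PU.1 match within 100 bp of the summit, 3 a C/EBP match, 6 an AP-1 match, 3 an IRF match and 1 a RUNX match. Among all regions of the genome the shares were 2.92%, 9.78%, 15.0%, 6.60% and 4.50%. The 3 regions with a PU.1 match were Csf2rb2 region 1, Csf3r region 3 and Csf1r region 10. They had a peak in 4 BCAS libraries each and in 0, 3 and 3 sham libraries. The summit of Csf1r region 10 lay in the body of another gene, Hmgxb3.

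Csf1r, the receptor gene for CSF1 and IL-34 (chr18:61100598-61132149, plus strand), had a higher mean in BCAS that rested on 3 of the 4 sham libraries. The scaled covered length was 1360, 1120, 1516 and 2623 bp in sham 1 to 4. It was 2584, 2468, 3001 and 2197 bp in BCAS 1 to 4. Sham 4 lay above 3 of the BCAS libraries, whereas the other sham libraries lay below all of them. The log2 fold change was 0.63 ± 0.18 (SE; 95% interval 0.25 to 1.01), with a limma adjusted p of 0.0656. Without sham 4 it was 0.85 (limma adjusted p = 0.00129), and with peaks of a -log10 q of at least 5 it was 0.82 (limma adjusted p = 0.021). The difference was 0.87 within the high read GC class and -0.05 within the low one, where sham 4 is the 1 sham library, and with this class as a covariate the log2 fold change was 0.41 (limma adjusted p = 0.368). The part of read GC content in the Csf1r values was not tested further.

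Along Csf1r, 11 regions were seen, of which 6 had a peak in more BCAS than sham libraries and 1 in more sham libraries. Of all regions of the genome, 30.4% had a peak in more BCAS and 23.2% in more sham libraries. At Csf1r, 3 of the 11 regions had a peak in 1 library only. Csf1r region 1 lay upstream, at -6.38 kb from the start of the transcript Csf1r-201. The annotated gene body begins at -4.974 kb on this scale. Csf1r region 1 had peaks of 220 and 292 bp in sham 1 and sham 4, none in sham 2 and sham 3, and peaks of 315, 334, 367 and 339 bp in BCAS 1 to 4. Its peaks ranked above 43.2% and 43.7% of peaks in the sham libraries that had one and above 80.5% to 85.6% in BCAS. Sham holds only 2 such ranks, and the share of regions of the genome with ranks apart in this way was not counted. Csf1r region 4 spanned an annotated start and had a peak in 0 sham and 3 BCAS libraries, which ranked above no more than 5.0% of the peaks of their libraries. Presence of that peak is therefore close to the limit of detection.

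Intron 2 of Csf1r is known to hold an enhancer of the macrophage lineage, the fms intronic regulatory element. Csf1r region 6, with its summit 2.97 kb after the start in that intron, had a peak in all 8 libraries. It was covered by 532, 585, 667 and 598 bp in sham and by 785, 717, 775 and 707 bp in BCAS. Its rank was 62.3%, 72.7%, 60.1% and 70.6% in sham and 74.9%, 82.0%, 80.0% and 80.3% in BCAS. Neither these unscaled lengths nor the ranks overlapped between the groups, but the scaled lengths did, at 627, 563, 580 and 710 bp in sham and 626, 731, 807 and 764 bp in BCAS. Csf1r region 7 in intron 11 had ranks of 25.9% to 60.1% in sham and 60.3% to 74.0% in BCAS. Of the 17 regions at the 7 loci with a peak in all 8 libraries, 3 had every BCAS rank above every sham rank and 1 had the reverse, against 5.32% and 2.27% of the 71712 such regions of the genome.

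**Figure D3:**
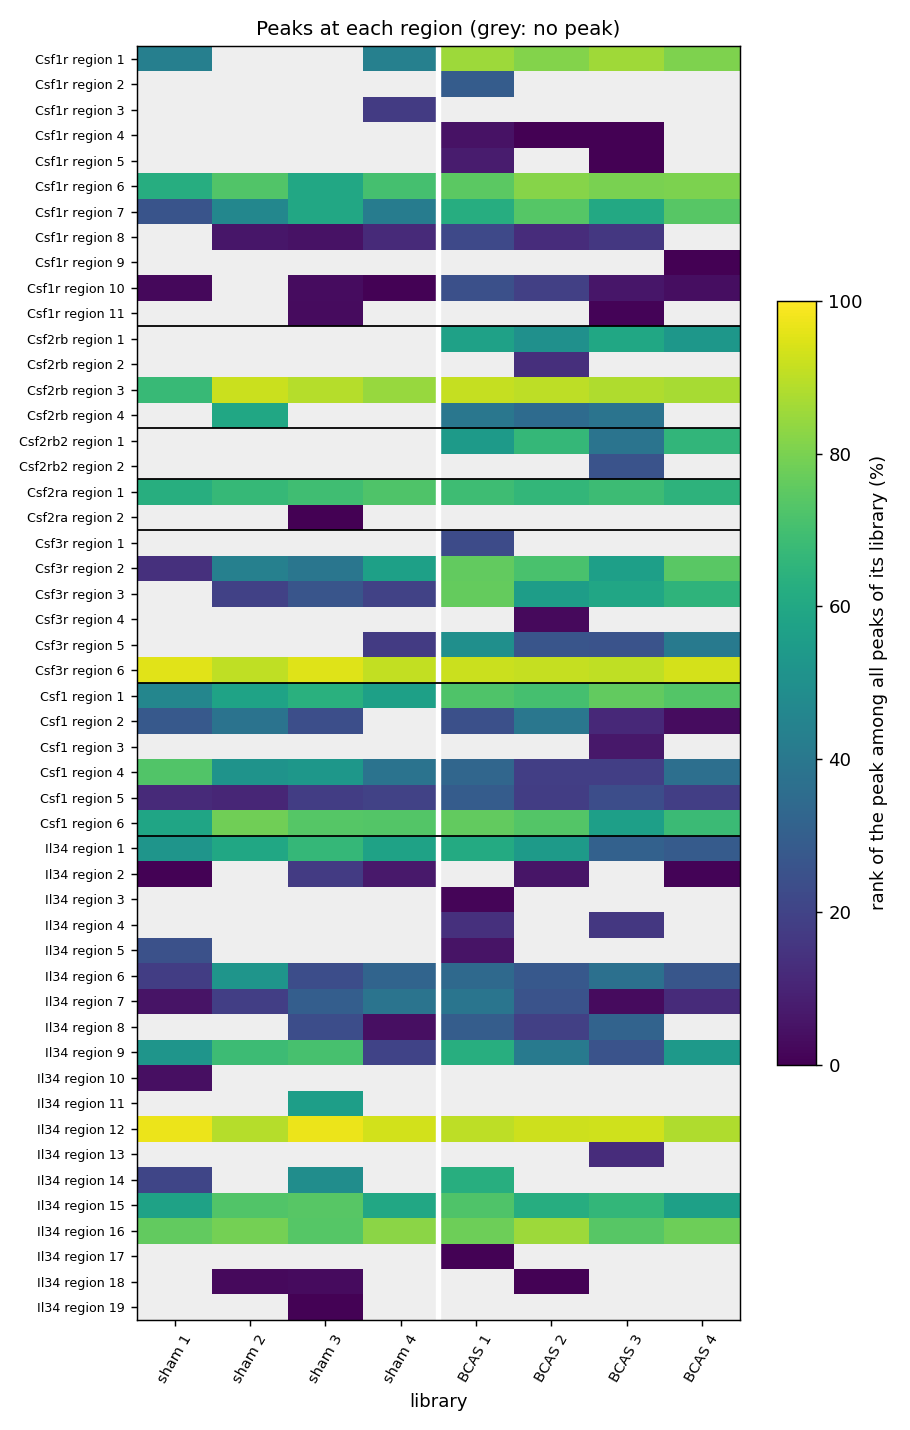
Rank of the strongest peak of each library (columns) in each of the 50 regions (rows, numbered in the direction of transcription), as the percentage of peaks of the same library with a lower fold enrichment, with grey for no peak. Csf2rb region 1 and Csf2rb2 region 1 are grey in the 4 sham libraries, and Csf1r region 1 ranks above 80% in the 4 BCAS libraries.

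The downstream Csf1r region 10 overlapped Hmgxb3, an HMG box gene on the opposite strand, and cannot be assigned to Csf1r alone. It was covered by 200, 0, 288 and 562 bp in sham and by 698, 610, 417 and 372 bp in BCAS. Leaving the bodies of other genes out changed the log2 fold change of Csf1r to 0.57 (limma adjusted p = 0.0827).

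The alpha chain gene Csf2ra (chr19:61223957-61228429, minus strand) showed no detectable change. Its scaled covered length was 1599, 1828, 1686 and 1586 bp in sham and 1614, 1776, 2020 and 2059 bp in BCAS. The log2 fold change was 0.14 ± 0.11 (SE; 95% interval -0.11 to 0.38; limma adjusted p = 0.685). Nearly all of it came from Csf2ra region 1, which was 2088 bp wide, spanned a transcript start and had a peak in all 8 libraries, at ranks of 62.5% to 72.4% in sham and 64.5% to 68.8% in BCAS. The intervals of the log2 fold changes of Csf2ra and Csf2rb did not overlap, while the difference between these genes was not tested.

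The ligand genes also showed no detectable change in covered length. Csf1 (chr3:107741048-107760469, minus strand) had 3299, 2684, 2215 and 2352 scaled bp in sham and 2091, 2095, 3024 and 2659 bp in BCAS. Its log2 fold change was -0.09 ± 0.14 (SE; 95% interval -0.38 to 0.20; limma adjusted p = 0.877). Il34 (chr8:110741829-110805924, minus strand) had 4647, 3253, 3832 and 3521 bp in sham and 3662, 3841, 3759 and 3165 bp in BCAS. Its log2 fold change was -0.07 ± 0.11 (SE; 95% interval -0.31 to 0.17; limma adjusted p = 0.887). The groups overlapped broadly at both genes.

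At Csf1, 4 of 6 regions had a peak in all 8 libraries, and at Il34 it was 7 of 19. At the start of Csf1 (Csf1 region 1) the rank was 46.0%, 58.1%, 63.4% and 56.8% in sham and 72.5%, 70.6%, 76.0% and 73.4% in BCAS, without overlap. Csf1 region 4, in intron 4, had the reverse order, at 72.8%, 51.4%, 53.1% and 37.9% in sham and 33.1%, 18.6%, 18.6% and 36.5% in BCAS. The covered lengths at the Csf1 start hardly differed, at 839 to 931 bp in sham and 842 to 963 bp in BCAS. At Il34 no region in all 8 libraries had ranks that separated the groups. Its strongest region, Il34 region 12 in intron 1, ranked above 88.8% to 96.9% of peaks in sham and 88.0% to 92.6% in BCAS. Il34 region 2 at the start was a weak one, with a peak in 3 sham and 2 BCAS libraries, and it lay across the antisense gene Gm15895.

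**Figure D4:**
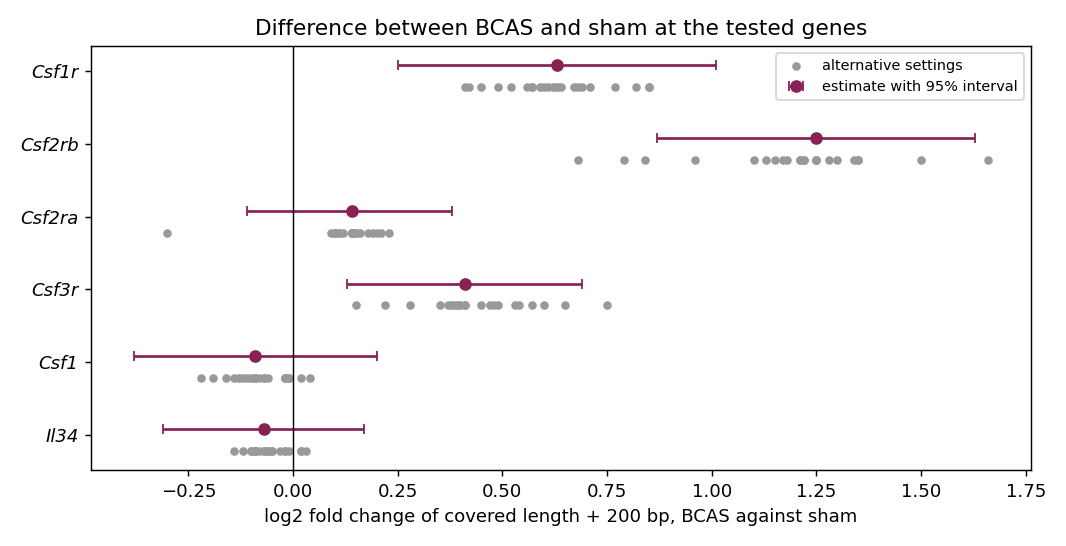
Log2 fold change of covered length + 200 bp, BCAS against sham (x axis), for the 6 members tested with limma, with 95% intervals (purple) and the values under 23 alternative settings (grey). Grey values include settings with 50 or 1000 bp added in place of 200 bp and the number of peaks, which are other scales. The interval of Csf2rb lies between 0.87 and 1.63, those of Csf1r and Csf3r lie above 0 without passing after adjustment over all loci, and those of Csf2ra, Csf1 and Il34 include 0.

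As a share of the length of the locus, Csf2ra was the most covered member (16.91% ± 1.78, SD, n = 8), followed by Csf1 (10.04% ± 1.75). Csf3r (6.43% ± 1.39), Csf1r (5.62% ± 1.83) and Il34 (5.29% ± 0.65) came next, and these 3 overlapped over the 8 libraries. Within BCAS, Csf1r (5.85% to 7.99%) and Csf3r (6.27% to 7.97%) lay above Il34 (4.52% to 5.48%), whereas within sham the means were 4.41%, 5.44% and 5.44% for Csf1r, Csf3r and Il34. Csf2rb (2.55% ± 1.47) and Csf2rb2 (0.57% ± 0.67) were the least covered. In BCAS alone the share was 3.82% ± 0.77 at Csf2rb and 1.15% ± 0.40 at Csf2rb2 (SD, n = 4 each), so that even there both were below all other members. These shares depend on the length of the locus, which ran from 10473 bp at Csf2ra to 70096 bp at Il34. In scaled bp, Csf2ra (means of 1675 in sham and 1867 in BCAS) lay below Csf1 (2637 and 2467) and Il34 (3813 and 3607).

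Genes that act downstream of these receptors were compared in the same fit. Of 31 tested genes of CSF receptor signalling, 9 rose and 0 fell, with a median log2 fold change of 0.08 beside 0.00 for all loci tested, of which 3.15% were called higher and 0.376% lower. Those of large change included Tyrobp (1.14 ± 0.23, limma adjusted p = 0.00947), Plcg2 (0.90 ± 0.11, adjusted p = 3.60e-04), Syk (0.89 ± 0.13, adjusted p = 0.0014), Ptpn6 (0.67 ± 0.12, adjusted p = 0.00347) and Lyn (0.58 ± 0.11, adjusted p = 0.00854), each as log2 fold change ± SE. Tyrobp encodes the adaptor DAP12, Syk the kinase that binds it, Plcg2 a phospholipase, Ptpn6 the phosphatase SHP-1 and Lyn a Src family kinase. For Tyrobp, which also stands in the list of microglia markers, the groups overlapped. For Plcg2, Syk, Ptpn6 and Lyn every BCAS library lay above every sham library. This held for 8 of the 31 genes of the list and for 6.03% of all loci tested. Plcg2, Syk, Ptpn6 and Lyn were named because limma had called them, so their separation is no further support.

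Of 13 tested myeloid transcription factor genes 3 rose and 0 fell, beside the same 3.15% and 0.376% of all loci, with a median of 0.11. Runx1 was higher by 1.13 ± 0.12 (limma adjusted p = 1.66e-04), Fli1 by 0.69 ± 0.11 (adjusted p = 0.00236) and Irf8 by 0.58 ± 0.13 (adjusted p = 0.0202) on the log2 scale. Spi1, the gene of PU.1, showed no detectable change (log2 fold change 0.09 ± 0.11, SE; limma adjusted p = 0.831), and its groups overlapped. Of 14 tested relatives of the family, such as other cytokines of the group and their receptors, 0 rose and 0 fell by limma after adjustment. Their median was -0.02. At an unadjusted limma p under 0.05, 1 of these relatives was higher and 0 lower, beside 1804 higher and 748 lower of the 17012 loci tested. The genes for GM-CSF itself and IL-5, Csf2 and Il5, had no peak in any library.

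Markers of the cell types that use these receptors were read beside the members, since in bulk tissue more cells of a type and more open DNA per cell cannot be told apart. Of 20 microglia markers 6 rose and 0 fell, where 3.15% and 0.376% of all loci did so, with a median log2 fold change of 0.42, and their summed scaled covered length was 24.2 to 31.5 kb in sham and 33.0 to 36.5 kb in BCAS. Of 10 neutrophil markers only 3 reached the minimum and 0 of these rose or fell (limma, with 0 at an unadjusted p under 0.05). The neutrophil sum was 1.06 to 1.43 kb in sham and 1.02 to 1.70 kb in BCAS. The 5 markers S100a9, Ly6g, Camp, Ngp and Retnlg had no peak in any library. Means were higher in BCAS for S100a8 (0 and 46.7 ± 93.3 bp), Mmp8 (0 and 98.9 ± 114 bp) and Elane (303 ± 15.3 and 407 ± 215 bp). They were lower for Cxcr2 (298 ± 47.4 and 200 ± 140 bp) and Mpo (700 ± 170 and 636 ± 125 bp). The groups overlapped for each of these markers (sham and BCAS, SD, n = 4 each). Among border macrophage and monocyte markers 1 of 6 tested rose, with a sum of 8.61 to 10.3 kb in sham and 9.24 to 10.5 kb in BCAS and with Ms4a7 and Ly6c2 at 0 in every library. Of 3 lymphocyte markers tested 0 passed by limma after adjustment. All 3 were higher at an unadjusted limma p under 0.05, as were 1804 of the 17012 loci tested. The sum of the lymphocyte list was 1.58 to 2.41 kb in sham and 3.30 to 3.77 kb in BCAS, while Cd8a, Ms4a1 and Cd79b were at 0. The T cell marker Cd3d was listed at 0 in sham and had 303 ± 48.1 bp in BCAS, and Cd3e, at 0 and 145 ± 180 bp, and Cd3g, at 43.5 ± 86.9 and 185 ± 129 bp, overlapped between the groups (SD, n = 4 each). The part of these cell types in the values of the receptor genes was not tested.

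By limma after adjustment, 0 of the tested astrocyte, oligodendrocyte, excitatory neuron, inhibitory neuron, endothelial, and mural cell and fibroblast markers rose or fell, with medians of 0.05, -0.05, -0.08, 0.05, 0.06 and 0.00. At an unadjusted limma p under 0.05, 3 endothelial markers were higher and 1 inhibitory neuron marker was lower. Of all 17012 loci tested, 1804 were higher and 748 lower at that threshold. The endothelial sum was 14.4 to 18.2 kb in sham and 18.8 to 22.2 kb in BCAS. Excitatory neuron markers were well covered in all libraries, at 27.5 to 31.3 kb in sham and 27.4 to 30.3 kb in BCAS.

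Over the 8 libraries the covered length of Csf1r was most like that of Stard5, a lipid transfer protein gene (Pearson's r = 0.990), Casp12 (r = 0.969), the NADPH oxidase subunit gene Ncf1 (r = 0.963), AI467606 (r = 0.958) and Slc25a37 (r = 0.957), given as a description over libraries that share their scaling. Of these, AI467606 was called higher in BCAS (log2 fold change 1.58 ± 0.34, SE; limma adjusted p = 0.0152). Among the members r with Csf1r was 0.859 for Csf3r, 0.608 for Csf2rb, 0.191 for Csf2ra, -0.136 for Il34 and -0.300 for Csf1.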

How the data were processed

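ATAC-seq was measured in 4 sham and 4 BCAS mice. Per the labels and the methods, the authors used Trim Galore for trimming, Bowtie2 2.3.4.3 for alignment to mm10, SAMtools 1.9 after removal of duplicates and MACS2 for peaks of each library. The options of the peak caller and any shift for Tn5 were not given in the sources used here. Each deposited list holds peak positions, an integer score, fold enrichment as a ratio over local background, and -log10 p and -log10 q. Fold enrichment was used for ranks within a library, and -log10 q for the threshold and the summit of a region.

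Genes came from GENCODE vM21 (basic), and exons and distances refer to the transcript with the first start. Sequence came from GRCm38.p6, whose 21 chromosomes hold all peaks. Covered length was scaled to the mean library total, increased by 200 bp and log2 transformed. Loci whose mean reached 200 bp entered limma 3.58.1 in R 4.3.3 with a variance trend (two-sided, Benjamini-Hochberg over 17012 loci). Csf2rb2 was tested with an exact permutation test over 70 labelings. Python 3.11.15, numpy 2.4.6, pandas 2.3.3, scipy 1.17.1 and matplotlib 3.10.9 were used. The procedure was tested on simulated data.

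Members, gene lists and motifs were chosen with earlier results of these data known. Genes named were the 7 members, at most 6 called genes of each pathway list by size of change, the 5 loci most correlated with Csf1r, and genes overlapping a member locus. Some genes that met this rule are not reported here. The neutrophil, border macrophage and monocyte, and lymphocyte marker genes named, and Spi1, Csf2 and Il5, were picked once values had been seen. Further settings were other thresholds, scalings, pseudocounts, locus definitions, covariates and left-out libraries.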

Additional observations from a re-analysis of the deposited data

How the results depend on the processing

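Csf2rb passed under 22 of 23 alternatives (log2 fold change 0.68 to 1.66) and lost its call with lists of equal length (0.79, limma adjusted p = 0.0518). Its lowest value, 0.68, was with a pseudocount of 1000 bp, which is another scale. Csf1r passed under 4, at 0.82 with a -log10 q of at least 5, 0.85 with lists of equal length, 0.63 with a replicate block (limma adjusted p = 0.00802) and 0.85 without sham 4, and ranged from 0.49 to 0.85 when each library was left out. Csf3r passed under 3, at 0.54 with lists of equal length, 0.65 with 10 kb on each side and 0.53 without sham 4, with 0.35 to 0.53 over left-out libraries. The other members did not pass under any, and their small differences changed sign for Csf1 (0.04 by number of peaks, -0.19 to 0.02 over left-out libraries), Il34 (0.02 without scaling, 0.02 without the bodies of other genes, -0.14 to 0.03 over left-out libraries) and Csf2ra (-0.30 by number of peaks). The Csf2rb2 difference of 336 bp was 279 to 367 bp over left-out libraries, where the exact test of 4 against 3 libraries cannot go below p = 0.0571. With a -log10 q of at least 5, Csf3r region 5 and Csf1r region 10 joined the regions with peaks in BCAS alone, which made 4 in place of 2, and leaving out libraries gave 2 to 3. A minimum of 200 bp of covered region changed nothing, since no peak is shorter. Within 50 bp of the summit the C/EBP, AP-1 and IRF matches fell to 1 region each.

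Over all loci, 536 were called higher and 64 lower. The number higher was 222 without scaling, 190 in promoter windows, 281 by number of peaks, 245 with read GC class as covariate, and 298 to 662 over left-out libraries, with 333 without BCAS 1 and 298 without BCAS 3. The number lower was 1, 7, 28 and 8 under the same 4 settings, 35 with upper quartile scaling, 160 with the replicate block, and 25 to 91 over left-out libraries, with 32, 25 and 30 without sham 1, 2 and 3, 91 without sham 4, and 29, 26 and 42 without BCAS 2, 3 and 4. The cause of these changes was not tested. Replicate numbers were not treated as pairs in the main test. Libraries with the same number correlated at -0.16, -0.01, -0.10 and 0.14 in their deviations, and 2 of 8 correlated best with their own number. So few values cannot show whether the mice were paired. The replicate block changed no call among the members other than that of Csf1r. Without read counts no precision can be given for a single peak.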
